A study of Ovis aries with 10 samples.

Results

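These results describe the endometrial genes that were at least 2-fold higher in ewes given RU486 together with progesterone than in ewes given progesterone alone. A gene was included when its mean level in the RU486 ewes was at least 1 and at least 2 times the mean of the other ewes, and when its lowest RU486 ewe lay above the highest ewe of the other group. Of the 23020 genes in the deposited table, 91 met this rule, or 0.395%, and they are called the raised genes below. All 10 ewes and the full contrast between the groups were used to choose them, so that their direction and their lack of overlap are fixed by the choice. The levels below are a description. Calls made on the same contrast are counted once, at the end, and support nothing.

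The tissue was endometrium, the lining of the uterine cavity, from 10 ovariectomized ewes (Ovis aries), and polyA RNA was measured by RNA-seq. In the P4 group (n = 5) each ewe received progesterone (P4) by daily injection at 50 mg for 14 days. In the P4+RU486 group (n = 5) the same daily progesterone was given throughout, alone for 7 days and together with 50 mg of RU486 from day 8 to day 14. All ewes therefore lacked ovaries and all received progesterone. There was no group without progesterone, no group given RU486 alone, and the labels name neither breed nor age. Each library comes from a different ewe, named here by group and replicate number, and these numbers do not pair ewes between groups.

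Progesterone acts in the uterus through the progesterone receptor, a nuclear receptor that, once bound to hormone, raises the transcription of some genes and lowers that of others. RU486 (mifepristone) competes with progesterone for the receptor and antagonizes it, and it also binds the glucocorticoid receptor. In sheep, progesterone prepares the endometrium for pregnancy, and the receptor is known to disappear from the endometrial epithelium under prolonged progesterone while it remains in the stroma.

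The deposited table identifies genes by Ensembl identifiers without names, and no identifier was found in the RefSeq gene table used. The raised genes are therefore described by their levels, with 2 identifiers named. Markers of epithelium, stroma, muscle, vessels and leukocytes could not be looked up, so the labelled tissue was not checked against them. In whole tissue, more cells of a type and more RNA per cell cannot be told apart. Levels are read as FPKM (fragments or reads scaled by gene length and by library size), a unit inferred from the values. Values summed to between 680815 and 803425 FPKM per ewe in P4 and between 704242 and 965174 FPKM in P4+RU486. P4+RU486 replicate 2 stood apart, with the highest sum and with 37.5% of it in the 100 most abundant genes, against 25.2% to 31.7% in the other 9 ewes. Sequencing depth is unknown, so the stated precision is the spread between ewes.

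A 2-fold difference between the means was much more common than a 2-fold difference without overlap. Of the 14958 genes with a mean of at least 1 FPKM in P4+RU486, 290 had a ratio of means of at least 2, and in 199 of these the lowest RU486 ewe did not exceed the highest P4 ewe. The raised genes were 31.4% of those 290. Conversely, 562 genes (3.76%) had every P4+RU486 ewe above every P4 ewe. The raised genes were 16.2% of these, since the other 471 were separated by less than 2-fold. With the groups exchanged, the same rule found 200 genes that were lower in P4+RU486, called the lowered genes below. They were 38.4% of the 521 genes with a ratio of at least 2 in that direction and 36.7% of the 545 without overlap.

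**Figure D1:**
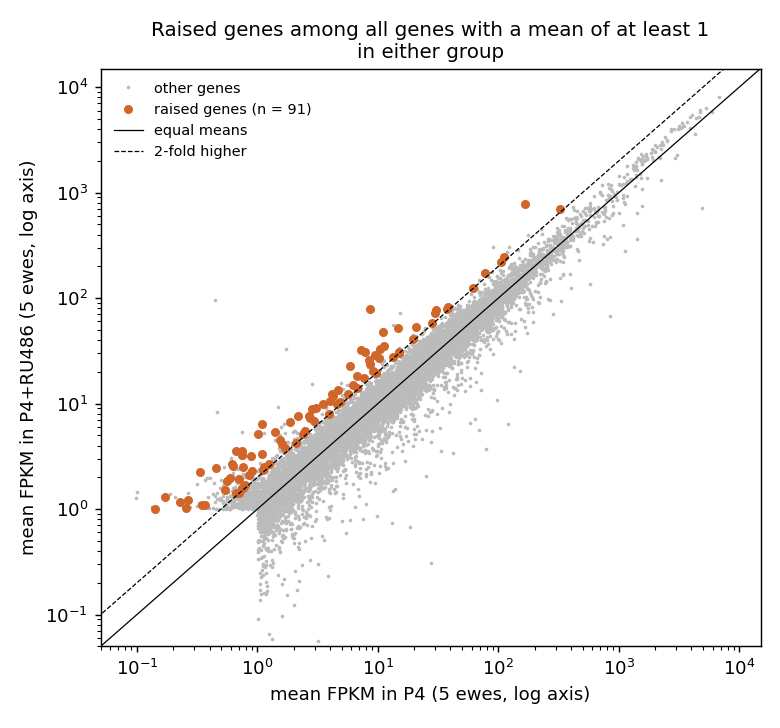
Mean FPKM in P4 (horizontal, log axis) against mean FPKM in P4+RU486 (vertical, log axis) for genes with a mean of at least 1 in either group; genes at 0 in a group, or below the axes, are not drawn. The 91 raised genes (orange) lie on or above the 2-fold line from a P4 mean of 0.142 to one of 327 FPKM, among other genes with similar means whose ewes overlapped.

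The raised genes covered a wide range of abundance, and most were of low to moderate level. Their median level was 2.84 FPKM under P4 and 7.64 FPKM under P4+RU486, and the quartiles in P4+RU486 were 2.54 and 28.2 FPKM. In P4+RU486, 6 of them had a mean of at least 100 FPKM, 40 of at least 10 FPKM and 16 of under 2 FPKM. None was at 0 in all P4 ewes. In 5 genes at least 1 P4 ewe was listed at 0, and the highest P4 mean among these was 0.618 FPKM. Each raised gene was thus listed above 0 in at least 1 ewe under progesterone alone, though 28 of them had a mean under 1 FPKM there.

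ENSOARG00000012862 was the most abundant raised gene in P4+RU486. In P4 its levels were 160.0, 177, 235, 131 and 131 FPKM in replicates 1 to 5. In P4+RU486 they were 1102, 600.1, 709, 958 and 543 FPKM. The lowest RU486 ewe was 2.31 times the highest P4 ewe, so the groups were well apart. The coefficient of variation (SD divided by the mean) was 25.6% between P4 ewes and 30.6% between RU486 ewes. The mean was 167 ± 42.8 FPKM under P4 (SD, n = 5) and 782 ± 239 FPKM under P4+RU486 (SD, n = 5), with a ratio of 4.69 and a difference of 2.204 (SE 0.23) on the log2(FPKM + 1) scale. Leaving out its highest ewe, P4+RU486 replicate 1, left a ratio of 4.21.

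ENSOARG00000018738 was a gene of moderate level with nearly the same separation. Its P4 levels were 5.73, 6.44, 5.75, 7.32 and 4.19 FPKM in replicates 1 to 5, and its P4+RU486 levels were 34.5, 17.2, 19.7, 24.9 and 16.8 FPKM. The lowest RU486 ewe was 2.29 times the highest P4 ewe, the widest separation among raised genes with a P4 mean of at least 1 FPKM apart from the gene above. The mean was 5.89 ± 1.149 FPKM under P4 (SD, n = 5) and 22.6 ± 7.41 FPKM under P4+RU486 (SD, n = 5), with a ratio of 3.84 and a difference of 1.74 (SE 0.21) on the log2(FPKM + 1) scale. In both genes the RU486 ewes fell in the same order, with replicate 1 highest, then 4, 3, 2 and 5. This order was shared by 3 further raised genes.

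**Figure D2:**
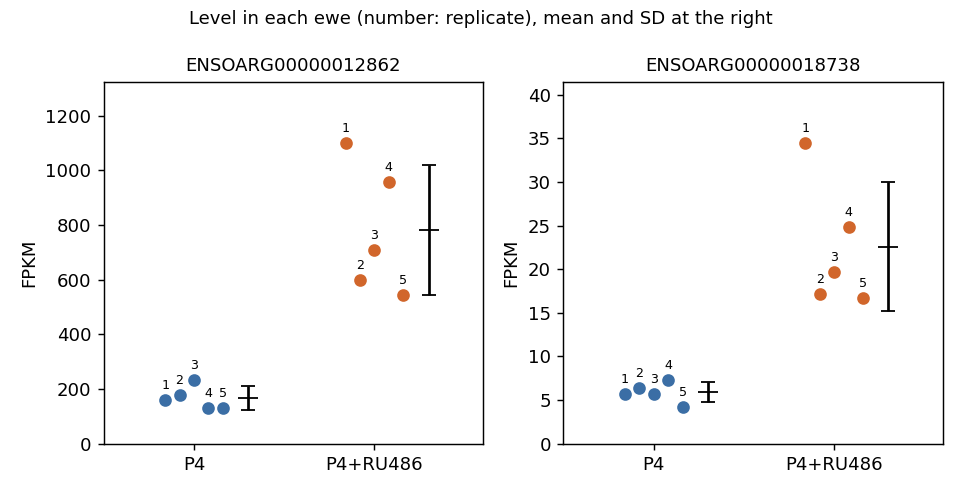
FPKM of ENSOARG00000012862 (left) and ENSOARG00000018738 (right) in each ewe, numbered by replicate, with the mean and SD of each group (n = 5) as a bar beside the points. Every P4+RU486 ewe lies above every P4 ewe, and replicate 1 is the highest of its group in both genes.

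Among the next most abundant raised genes the difference was close to 2-fold, and in the third it rested largely on 1 ewe. The second most abundant gene was at 358, 352, 298, 324 and 300.4 FPKM in P4 replicates 1 to 5. In P4+RU486 it was at 965, 540.2, 689, 743 and 592 FPKM. Its P4 ewes lay close together, at 327 ± 28.1 FPKM, and its ratio of means of 2.16 fell to 1.96 without P4+RU486 replicate 1. The third most abundant gene had 541 FPKM in P4+RU486 replicate 2 and between 133 and 200.3 FPKM in the other 4 ewes of that group, against 79.9 to 127 FPKM in P4. Its ratio was 2.21 with all ewes and 1.55 without replicate 2, the library that stood apart, and this was the lowest such ratio of all raised genes. The fourth had P4 ewes of 72.5 to 148 FPKM and RU486 ewes of 159 to 280 FPKM, so that the groups barely parted. The fifth was among the more even ones, with 59.5 to 104 FPKM in the P4 ewes and 145 to 204 FPKM in the RU486 ewes.

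The ratio of means was small in most raised genes. Its median was 2.76 and its quartiles were 2.16 and 3.58. It was under 2.5 in 36 genes, from 2.5 to under 4 in 36 and at least 4 in 19, or 20.9%, of which 9 reached 5. On the log2(FPKM + 1) scale, which reduces the differences of low genes, the median difference was 1.08, against 0.00 over all genes tested. The lowered genes had a median ratio of P4 to P4+RU486 of 3.08, and 59 of the 200, or 29.5%, reached 4, including 1 listed at 0 in all RU486 ewes. The ratios of both sets are bounded by the rule, and the difference between them was not tested.

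The gene with the largest ratio of means was also one of the most uneven. It stood at 5.33, 4.38, 3.54, 12.4 and 17.2 FPKM in P4 replicates 1 to 5. In P4+RU486 it reached 117, 17.6, 162, 34.5 and 62.4 FPKM, so that the ratio of 9.20 came with a lowest RU486 ewe only 1.02 times the highest P4 ewe. The next by ratio, at 7.66, was a rare transcript with 0.00 to 0.36 FPKM in the P4 ewes and 0.41 to 3.20 FPKM in the RU486 ewes. The number of reads behind such values, given to 2 decimals, is unknown. By contrast, the gene whose RU486 ewes were most alike ran from 8.33 to 12.04 FPKM in the P4 ewes and from 25.8 to 33.3 FPKM in the RU486 ewes, with a ratio of 3.099.

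Most of the ratios of at least 4 belonged to genes that were low under progesterone alone. Of the 28 raised genes with a P4 mean under 1 FPKM, 13 had a ratio of at least 4 and the median ratio was 3.47. The median coefficient of variation between P4 ewes was 49.2% in these genes. The 28 genes from 1 to under 5 FPKM had a median ratio of 2.74, and the 23 genes from 5 to under 20 FPKM one of 2.68. The 12 genes of at least 20 FPKM in P4 had a median ratio of 2.19, 1 of them with a ratio of at least 4, and a median coefficient of variation in P4 of 19.2%. As a share of genes with a mean of at least 1 FPKM in P4+RU486, the raised genes fell from 7.84% of the 357 with a P4 mean under 1 FPKM to 0.188% of the 6390 with a P4 mean of at least 20 FPKM. The rule largely fixes both this fall in share and the higher ratios of the lowest band. A gene under 1 FPKM in P4 had to be higher in P4+RU486 to be counted, and the P4 mean is the denominator of the ratio, so nothing is read from the bands.

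The distance between the groups was modest for most raised genes. The lowest RU486 ewe exceeded the highest P4 ewe by a median factor of 1.35, which was under 1.1 in 13 genes, at least 1.5 in 25 and at least 2 in 6. The highest factor was 2.41, in a gene with 0.70 to 1.04 FPKM in the P4 ewes and 2.51 to 4.4 FPKM in the RU486 ewes. Without its highest RU486 ewe, a gene still had a ratio of at least 2 in 67 cases and fell below 2 in 24. Removing the highest ewe lowers every ratio, and 36 raised genes began under 2.5, so nothing is read from these counts. The highest RU486 ewe was at least 2 times the next in 3 genes and at least 1.5 times in 22.

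The edges of the rule cut through a continuous range. The lowest ratio among the raised genes was 2.01 (means of 15.1 and 30.3 FPKM), and the nearest gene without overlap outside had 1.998 (24.2 and 48.3 FPKM). Between ratios of 1.5 and 2 there were 154 genes without overlap and a mean of at least 1 FPKM, against the 36 raised genes from 2 to under 2.5. For the minimum level, the nearest means in P4+RU486 were 1.01 FPKM inside and 0.992 FPKM outside. For the overlap, the nearest factors between the groups were 1.02 inside and exactly 1 outside.

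**Figure D3:**
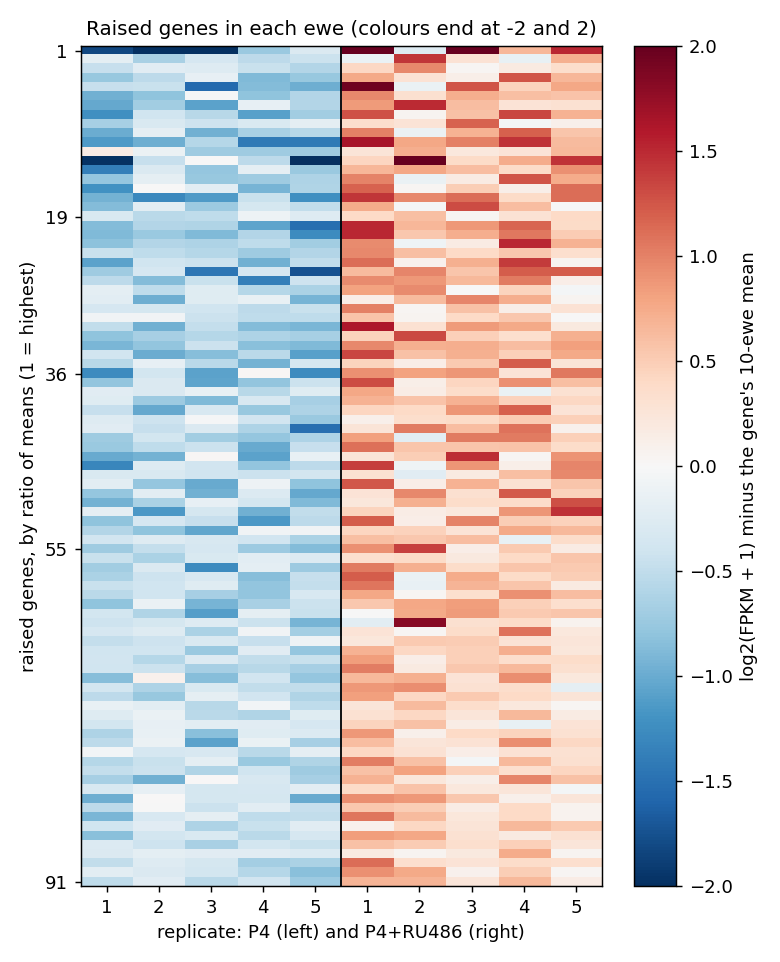
Level of the 91 raised genes (rows, ordered by ratio of means) in each ewe (columns), as log2(FPKM + 1) minus the mean of the gene over all 10 ewes; darker red is higher and darker blue lower, and colours end at -2 and 2. All rows change at the line between the groups, as the rule requires, and within P4+RU486 replicate 1 has the highest value in 36 rows.

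The RU486 ewes did not carry the raised genes evenly. P4+RU486 replicate 1 was the highest of its group in 36 raised genes (39.6%), replicate 4 in 23, replicate 2 in 17, replicate 3 in 8 and replicate 5 in 7. Over all genes with a mean of at least 1 FPKM in P4+RU486, replicate 1 was the highest in 18.5% and replicate 2 most often, in 30.8%. Replicates 3, 4 and 5 were the highest in 13.3, 20.2 and 17.2% of these genes. At the other end, replicate 5 was the lowest RU486 ewe in 30.8% of the raised genes and in 19.2% of all genes at this level. Replicate 1 was the lowest in 7.69% and 18.02%, and replicate 2 in 28.6% and 32.8%. Replicates 1 and 4 were together the 2 highest RU486 ewes in 21 raised genes (23.1%), against 6.21% of all genes at this level. This was the most frequent pair among the raised genes. The next, replicates 1 and 2, had 19.8% of them against 17.0% of all genes at this level. The rule removes genes in which any RU486 ewe is low, so these shares are not free of the choice of genes.

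Relative to the P4 mean of each gene, the median raised gene was 2.98-fold in P4+RU486 replicate 1, 2.45-fold in replicate 2, 2.62-fold in replicate 3, 2.66-fold in replicate 4 and 2.26-fold in replicate 5. The number of raised genes at least 2-fold above their P4 mean was 81, 71, 67, 76 and 58 in the same order, and it was 1 or 2 in each P4 ewe. Of all FPKM summed per ewe, the raised genes held 0.181% ± 0.00864 under P4 and 0.468% ± 0.0812 under P4+RU486 (SD, n = 5 in each group). By ewe this share was 0.583, 0.369, 0.470, 0.499 and 0.419% in P4+RU486 replicates 1 to 5, and 0.173 to 0.195% in P4. The low share of replicate 2 goes with its high sum, and without it the mean share in P4+RU486 was 0.493%. Without the 2 most abundant raised genes the shares were 0.115% ± 0.00844 in P4 and 0.273% ± 0.0245 in P4+RU486.

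The ewe with the highest raised genes also had the lowest lowered genes. Each ewe was placed at the median, over a set of genes, of its log2(FPKM + 1) minus the mean of the gene over 10 ewes. On the raised genes P4+RU486 replicate 1 lay at 0.76, followed by replicates 4 at 0.52, 2 at 0.49, 3 at 0.47 and 5 at 0.37. On the lowered genes replicate 1 lay at -0.79, replicates 3, 2 and 4 at -0.67, -0.60 and -0.57, and replicate 5 at -0.48. Replicates 1 and 5 were thus the ends of the group on both sets, while the order of the 3 between them differed. The P4 ewes lay between -0.60 and -0.39 on the raised genes and between 0.60 and 0.65 on the lowered genes. The median over all genes with a mean of at least 1 FPKM in P4+RU486 was between -0.02 and 0.01 in every ewe. With 5 ewes a group, no correlation is given.

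**Figure D4:**
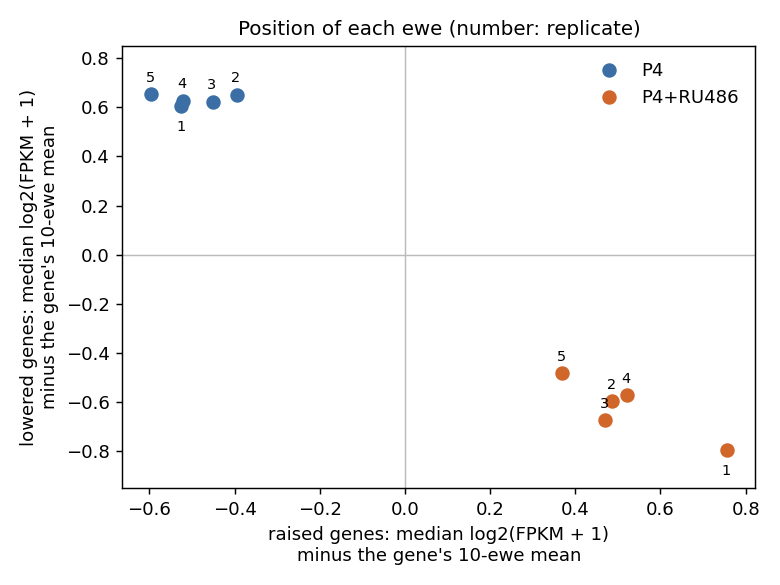
Median position of each ewe (numbered by replicate) on the 91 raised genes (horizontal) and the 200 lowered genes (vertical), both as log2(FPKM + 1) minus the 10-ewe mean of the gene. The rule places the groups in opposite corners; within P4+RU486, replicate 1 lies farthest out on both axes (0.76 and -0.79) and replicate 5 least (0.37 and -0.48).

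How far the spread between ewes differed between the groups depended on the scale for the raised genes. The median SD on the log2(FPKM + 1) scale was 0.26 under P4 and 0.36 under P4+RU486 over the raised genes, and 0.20 and 0.29 over all genes with a mean of at least 1 FPKM in P4+RU486. The SD was larger in P4+RU486 in 61 raised genes (67.0%), and in 74.3% of all genes at this level. Without P4+RU486 replicate 2, a choice made after seeing the data, the median SD in P4+RU486 was still 0.36 over the raised genes but 0.21 over all genes at this level. It then exceeded that of P4 in 63 raised genes (69.2%) and in 55.6% of all genes at this level. The difference between the raised genes and the rest was not tested. The rule makes the raised genes lower in P4, and the log2(FPKM + 1) scale reduces the spread of low genes. Both favour a larger SD in P4+RU486 for the raised genes, so nothing is read from these shares. Relative to the mean, the spread of the raised genes was similar in the groups, with a median coefficient of variation of 28.0% in P4 and 31.1% in P4+RU486. It was larger in P4+RU486 in 50 of the 91. A coefficient of at least 50% was found in 17 raised genes in P4 and in 10 in P4+RU486. In the 28 genes with a P4 mean under 1 FPKM its median was 49.2% in P4 and 37.4% in P4+RU486.

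The rule was also applied to 9 ewes, and the tenth, which had no part in that choice, was then compared with the ewes of the other group, which did. Each set of 9 gave between 100 and 135 genes. A held-out RU486 ewe lay above all 5 P4 ewes in 76.2, 63.0, 87.6, 78.9 and 77.7% of the genes chosen without it (replicates 1 to 5). A held-out P4 ewe lay below all 5 RU486 ewes in 84.6, 87.6, 73.8, 88.0 and 85.4%. The means were 76.7% ± 8.86 for P4+RU486 and 83.9% ± 5.80 for P4 (SD, n = 5 each). Over all genes with a mean of at least 1 FPKM in P4+RU486, the same held in 26.5% ± 4.79 and 18.9% ± 2.20. The lowest shares belonged to P4+RU486 replicate 2 and P4 replicate 3. Without P4+RU486 replicate 2, a choice made after seeing the data, the mean for P4+RU486 was 80.1%. Leaving out the lowest value raises a mean in any case. The ewes of the other group helped to choose the genes, for being low or high in them, which favours a high share whatever the held-out ewe shows. The genes in the all-gene shares were not chosen in this way, so they are no measure of the share without a difference. The 10 values share ewes and no test was made, and the shares are a description.

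The fold difference was smaller in the held-out ewes than in the ewes used for the choice. For P4+RU486, the median fold of the held-out ewe over the P4 mean was 2.43, 1.65, 2.14, 2.197 and 1.92 in replicates 1 to 5, a mean of 2.07 ± 0.294 (SD, n = 5). In the 9 ewes that chose these genes the median ratio was 2.68 ± 0.0797. For P4, the median fold of the RU486 mean over the held-out ewe was 2.40 ± 0.212, against 2.64 ± 0.0357 in the 9 ewes (SD, n = 5 each). In the held-out RU486 ewes, 42.2 to 65.3% of the chosen genes were at least 2-fold above the P4 mean. The fold of a held-out ewe sets a single ewe against a mean of 5. The ratio in the 9 ewes sets a mean of 4 against a mean of 5. A gene chosen for a ratio of at least 2 was often nearer to the other group in a ewe outside the choice. The choice itself favours a higher ratio in the 9 ewes, so nothing is read from this difference.

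**Figure D5:**
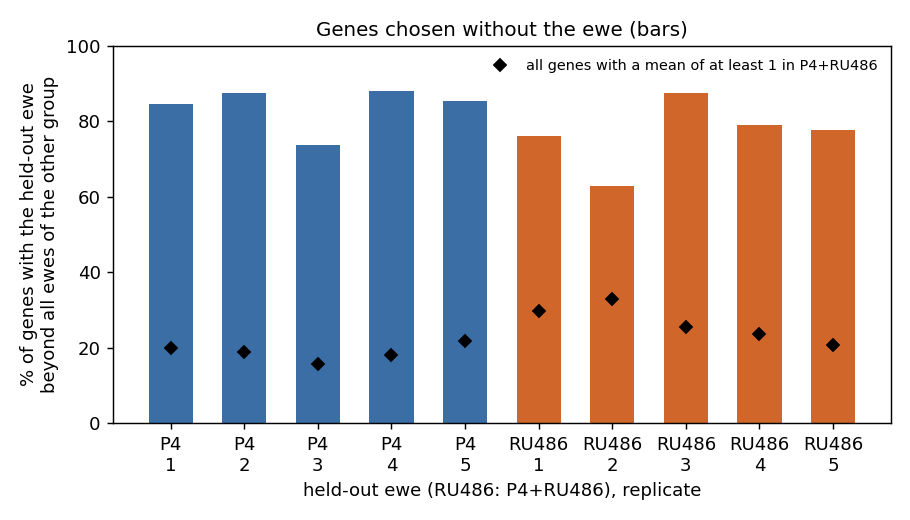
Share of genes (%) in which a held-out ewe lay beyond all ewes of the other group, for the genes chosen on the other 9 ewes (bars, P4 blue and P4+RU486 orange) and for all genes with a mean of at least 1 FPKM in P4+RU486 (diamonds). Bars run from 63.0 to 88.0% and diamonds from 15.8 to 32.8%, and P4 replicate 3 and P4+RU486 replicate 2 have the lowest bars of their groups. The ewes of the other group helped to choose the genes of the bars, so the diamonds are no measure of the share without a difference.

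Membership changed with the ewes in the comparison. With a ewe left out, the condition of no overlap can only become easier to meet, so the step itself favours a gain in genes. A raised gene can then be lost only through its ratio or its mean level. Leaving out P4+RU486 replicate 2 gave 135 genes, of which 59 joined, while 15 of the 91 were lost. Leaving out P4 replicate 3 gave 130 (45 joined and 6 lost), and leaving out P4+RU486 replicate 5 gave 130 (40 joined and 1 lost). Without P4+RU486 replicate 1, 25 joined and 15 were lost. Of the 91 raised genes, 60 met the rule in every set of 9 ewes. This count reflects the ratio and the level, and is no check of the separation. Without both P4 replicate 3 and P4+RU486 replicate 2, 181 genes met the rule, 74 of them among the 91.

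A model fitted over all genes called fewer of the raised genes than the authors' analysis did. With limma on log2(FPKM + 1), 70 of the 91 had a Benjamini-Hochberg adjusted p (FDR) under 0.05, where 1.03% of the 23019 genes tested were called higher in P4+RU486. The authors' deposited table gives 87 of the 91 an edgeR adjusted p under 0.05, where 2.95% of all genes were called there and had the higher mean in P4+RU486. The rule used the same contrast, so nothing is read from these shares. The 87 in the authors' deposited table include all 70 of limma. The 21 raised genes that limma did not call had a lower median level in P4+RU486 (2.52 against 10.5 FPKM), a smaller median factor between the groups (1.13 against 1.41) and a larger median coefficient of variation in P4+RU486 (42.1 against 25.6%). The 4 genes not called in the authors' deposited table had means of 1.16 to 3.77 FPKM in P4+RU486 and ratios of 2.02 to 5.10. The limma count fell to between 29 and 41 without any 1 of P4 replicates 1, 2, 4 and 5 or P4+RU486 replicates 1 and 3. In the same fits, the calls higher in P4+RU486 over all genes tested fell from 238 to between 54 and 94.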

How the data were processed

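Endometrial polyA RNA of 10 ewes was measured by stranded RNA-seq, per the labels' protocols. Per the submitters' processing notes, which state neither roles nor order, the authors used Oar_v3.1 with featureCounts 1.5.0, HISAT2 2.0.3, cutadapt 1.11 and edgeR. The authors deposited 1 value per gene and ewe, with 2 decimals and no stated unit, read here as FPKM because sums differ between ewes and lie below the fixed total of TPM. TPM with genes removed would look alike. How the authors scaled the libraries is not given in the labels or the file header. The p-values in the authors' deposited table are edgeR adjusted p, per the file headers, and were not used to choose genes.

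Ratios are of mean FPKM. Differences and SDs on the log2 scale used a pseudocount of 1. Over 23019 genes above 0 in some ewe, limma 3.58.1 (R 4.3.3) was fitted with 1 group term and a variance trend, and adjusted by Benjamini-Hochberg. The main analysis was planned for values without counts. On simulated data for P4+RU486 against P4 with 200 of 23019 genes changed, it recovered 65% of those changed by 1 and 95% of those changed by 2 on the log2 scale, with 8 false calls. The remaining steps used Python 3.11.15. The members, thresholds and lists were chosen with earlier results of these data known. The 2 named genes are the most abundant raised gene in P4+RU486 and that with the widest gap between the groups among those with a P4 mean of at least 1 (the next when both were the same gene). The planned marker and gene lists could not be tested without symbols. Alternatives covered the thresholds, scaling, pseudocount, filter, array weights and each ewe left out.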

Additional observations from a re-analysis of the deposited data

Results flagged for a closer look

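In 26 groups of 5 values an ewe far from the rest was searched for with Dixon's ratio, whose critical value for 5 samples is 0.71, and chance flags about 1 in 20 such groups. It was found in 2. P4 replicate 3, held out, lay below all RU486 ewes in 73.8% of the genes chosen without it, against 84.6 to 88.0% for the other P4 ewes (ratio 0.761). P4+RU486 replicate 2 had a summed level of 965174 FPKM, against 704242 to 765735 FPKM in its group (ratio 0.764). Gene by gene, 3 of the 91 raised genes had such a ewe in P4 and 3 in P4+RU486 on the log2(FPKM + 1) scale. In P4+RU486 these were replicate 1 in 2 genes and replicate 4 in 1, each above its group.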

How the results depend on the processing

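The number of raised genes, 91, became 245 with a fold minimum of 1.5, 36 with 3, 55 with a minimum mean of 5 FPKM, and 56 when the 2-fold was taken as a difference of 1 in mean log2(FPKM + 1). It was 92 after median-ratio rescaling (89 of the 91 kept), 103 after quantile normalisation (88 kept) and 69 with each library scaled to the same sum (65 kept); 61 were kept under all 3. Leaving out 1 ewe gave 100 to 135, and leaving out P4 replicate 3 and P4+RU486 replicate 2 together, an alternative chosen after seeing the data, gave 181. Fewer ewes loosen the condition of no overlap, which favours these higher counts. Limma called 238 genes higher in P4+RU486 over all genes tested. This count was 203 to 624 under the other pseudocounts, scalings, filter and weights, and 54 to 429 with 1 ewe left out. Among the raised genes, the 70 calls became 57 to 86 and 29 to 73 in the same settings. The median log2 difference of 1.08 was 1.41 with a pseudocount of 0.1 and 0.71 with 5, and 1.03 to 1.112 with 1 ewe left out. The share of all FPKM held by the raised genes, 0.181% (P4) and 0.468% (P4+RU486), was 0.254% and 0.686% without the 100 most abundant genes. It was 0.115% and 0.273% without the 2 most abundant raised genes, and 0.177 to 0.182% and 0.439 to 0.493% with 1 ewe left out. The held-out shares moved by less than 1 SD between ewes with a fold minimum of 3, a minimum mean of 5 FPKM or median-ratio rescaling, and in the 3 alternatives for the order of the ewes at least 8 of 10 kept their rank. No paired analysis was made, since each ewe was in 1 group and the labels pair no ewes and give no replicate numbers. Values at low level are limited by unknown depth and by rounding.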
